A study of Homo sapiens with 8 samples.

Results

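SLC7A11 and SLC3A2 encode the light and the heavy chain of the cystine importer system xc-. Both chains were found by their symbols in the deposited expression table, as 2 of its 13730 genes, and their levels and their ratio were followed over the 4 groups of the series. The cells were LN229-TAZ(4SA), a human glioblastoma line that carries a TAZ(4SA) construct in every group. They were TrxR1 knockout cells (KO; TrxR1 is the cytosolic thioredoxin reductase encoded by TXNRD1) or control cells (EV), kept in regular culture or without glucose. The base medium was DMEM with fetal bovine serum. Each group had 2 libraries, called a and b below, which are only names. The number of KO clones and the length of glucose deprivation are not given in the sources used here, and neither is whether the libraries came from separate cultures. A difference between KO and EV cells that is not due to TrxR1 therefore cannot be told apart from its loss. All p-values likewise rest on how far these libraries differ, which may be technical.

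System xc- exchanges extracellular cystine, the oxidized dimer of cysteine, for intracellular glutamate. SLC7A11 (xCT) is the chain that transports. SLC3A2 (4F2hc, CD98) is a membrane glycoprotein that is joined to its light chain by a disulfide bond and brings it to the cell surface, and it serves several other amino acid transporters of the SLC7 family in the same way. Inside the cell cystine is reduced to cysteine by thioredoxin- and glutathione-dependent enzymes at the cost of NADPH, and cysteine feeds glutathione synthesis. SLC7A11 is known as a target of NRF2, the factor of the oxidative stress response, and of ATF4, the factor of the amino acid and unfolded protein response, and SLC3A2 as a target of ATF4. Disulfidptosis, the form of cell death named in the series title, has been described in cells with much SLC7A11 that lack glucose, the source of their NADPH. The design asks what the TrxR1 knockout does when glucose is missing too.

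Values are CPM, the reads of a gene scaled to an effective size of its library. This size is not the plain total. In library a of deprived KO cells it was 1.055e+08, below the 107229069 reads of that library in the table. The libraries held 70083018 to 107229069 reads in the table, and 1 read was worth 0.0095 to 0.0143 CPM. At this depth counting error was small for both chains, and the spread between libraries sets the precision. The 2 libraries of a group were not copies of 1 library, since the chi-square of their reads was 4.06 to 18.5 per gene. TXNRD1 mRNA was at 263 and 260.6 CPM in EV and 245 and 249.5 CPM in KO cells in regular medium, and at 509 and 493 CPM in EV and 370.4 and 351 CPM in KO cells without glucose. These totals per gene do not show whether an exon was edited. Of the neural and glioma markers NES was at 376 to 860 CPM, VIM at 2971 to 3696 CPM and SOX2 at 15.1 to 56.0 CPM. S100B was at 13.2 to 23.5 CPM, OLIG2 at 6.0 to 16.9 CPM and GFAP at 0.67 to 1.4 CPM. In both cell types the means of NES and SOX2 were lower without glucose, and those of VIM, S100B, OLIG2 and GFAP higher. WWTR1, which encodes TAZ, was at 306 to 362 CPM. Of leukocyte (PTPRC, CD3E, LYZ) and endothelial markers (PECAM1, CDH5), 0 of 5 had values to analyse here.

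SLC7A11 mRNA was higher in KO than in EV cells in both media and higher without glucose in both cell types. The gene (Entrez 23657) lies on the minus strand of chromosome 4, from 138164097 to 138242349 of GRCh38, with 12 merged exons in GENCODE. In regular medium it was at 48.2 and 49.3 CPM in EV cells and at 179.8 and 194 CPM in KO cells. Without glucose it was at 351 and 364 CPM in EV cells and at 509.5 and 503 CPM in KO cells. No group overlapped another, and every library of EV cells without glucose was above every library of KO cells in regular medium. CPM are relative to the other mRNA of bulk cultures, so a change in some of the cells and a change in each cell, or a change in total RNA, cannot be told apart.

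**Figure D1:**
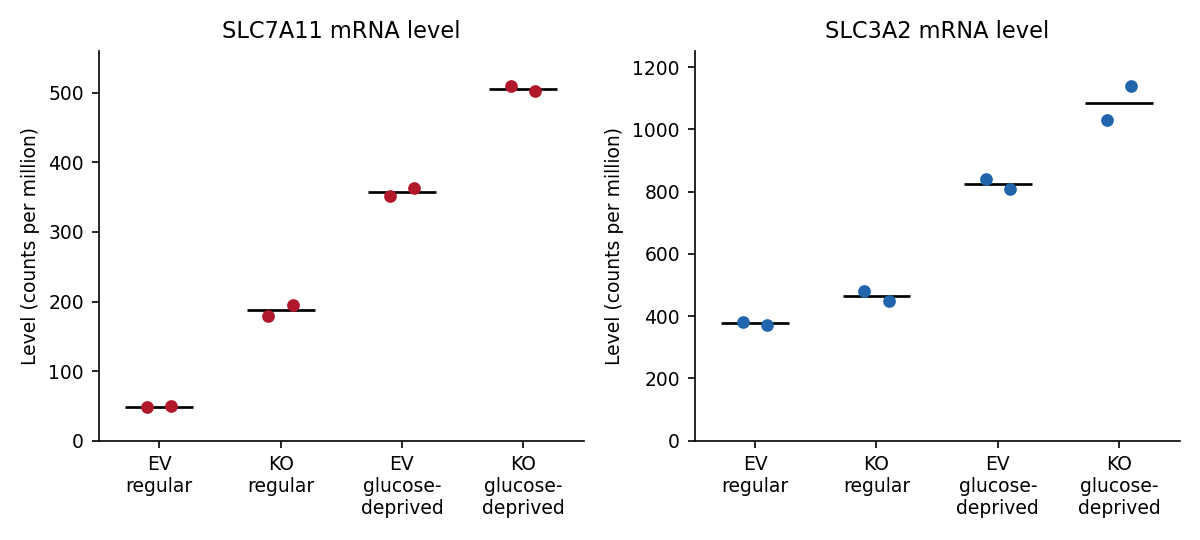
Levels of SLC7A11 (left) and SLC3A2 (right) in CPM on linear axes that start at 0, for the 4 groups; points are the 2 libraries of a group and bars their mean. SLC7A11 means were 48.7, 187.1, 357.4 and 506.1 CPM from left to right, and SLC3A2 means 377.5, 464.2, 824.5 and 1084 CPM.

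In regular medium SLC7A11 rose 3.84-fold in KO cells, a log2 fold change of 1.94 ± 0.041 (SE, n = 2 libraries a group; limma adjusted p = 3.1e-09). This was rank 4 from the highest of 13057 genes tested, of which 7.25% were called at an adjusted p under 0.05 and 3.87% were called higher. In glucose-deprived medium the rise was 1.42-fold, a log2 fold change of 0.50 ± 0.041 (limma adjusted p = 3.6e-05), and ranked 247. There 19.6% of genes were called and 9.04% were called higher. The KO effect thus differed between the media by -1.44 ± 0.058 on the log2 scale (95% interval -1.57 to -1.31, limma adjusted p of the interaction 7.4e-07), rank 5 from the lowest, in a contrast that called 4.31% of genes and 2.01% as lower. These background counts rest on few libraries. Over single libraries left out, 168 to 1414 genes were called for KO in regular medium (946 with all; lowest without EV library a or b, at 168 and 198, and 517 to 581 without KO library a or either deprived EV library). Without glucose 852 to 3058 were called (2561 with all; 852, 892 and 1540 without library b or a of deprived EV cells and b of deprived KO cells). The interaction called 147 to 1579 (563 with all; 147 to 183 without any 1 EV library, 368 and 1579 without deprived KO library b and a). SLC7A11 remained called in all 15 alternatives of each of these KO contrasts and in 14 of 14 of the interaction.

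Lack of glucose raised SLC7A11 7.33-fold in EV cells (log2 fold change 2.87 ± 0.041, limma adjusted p = 4.4e-12) and 2.71-fold in KO cells (1.44 ± 0.041, adjusted p = 5.7e-10). These were ranks 44 and 312 from the highest. Most genes moved with the medium: 76.2% were called in EV cells, 37.5% as higher, and 73.3% in KO cells, 36.5% as higher. A call in either contrast was therefore common among all genes.

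On the scale of CPM the same 4 group means of SLC7A11 were close to a sum. KO alone added 138.4 CPM to the level of EV cells in regular medium, and lack of glucose alone added 308.6 CPM. Their sum is 447 CPM, and both conditions together added 457.4 CPM, a departure of 10.4 ± 10.2 CPM (SE from the libraries' SDs). The level of KO cells without glucose was 10.4 times that of EV cells in regular medium. Multiplying the 2 single folds would give 1373 CPM, against a measured mean of 506.1 ± 4.9 CPM (SD, n = 2). The smaller KO fold without glucose thus came with a KO difference of 148.8 CPM there and 138.4 CPM in regular medium.

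The same reading was made for SLC3A2 and for 7 reference targets of NRF2. SLC3A2 stood at 1084 ± 77 CPM under both conditions, against 911.3 CPM as a sum and 1014 CPM as a product, and its departure from the sum was 172.8 ± 60.1 CPM. OSGIN1, an oxidative stress response gene, departed from its sum by 4.41 ± 3.67 CPM (58.2 CPM measured, 105.2 CPM as a product) and NQO1, a quinone reductase, by -3.42 ± 4.19 CPM (350.4 CPM measured, 485 CPM as a product). HMOX1, heme oxygenase, departed from its sum by 829 ± 26.6 CPM and was near the product, at 1129 CPM measured and 1152 CPM as a product. SRXN1 (295.7 CPM measured) and GCLM (179.6 CPM) lay between sum and product, departing from the sum by 31.1 ± 6.4 and 14.1 ± 5.9 CPM, as did ME1 by 1.99 ± 1.56 CPM. TXNRD1 was below both, with a departure of -125.5 CPM from its sum. The targets thus differed in which computed level they were nearest to. The choice of this scale was made after the values were seen.

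**Figure D2:**
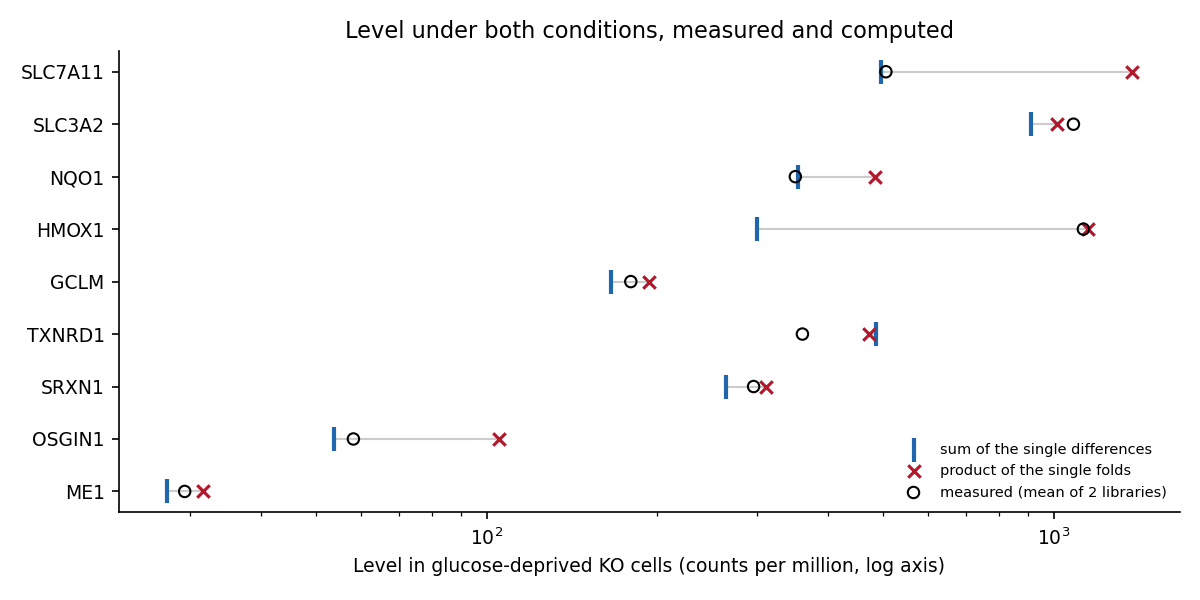
Measured mean level in glucose-deprived KO cells (open circles, n = 2 libraries), the level that the 2 single differences in CPM add up to (bars) and the level that the 2 single folds multiply to (crosses), on a log axis in CPM, for both chains and 7 NRF2 reference targets. SLC7A11, NQO1 and OSGIN1 lie near the sum, HMOX1 near the product, and SLC3A2 above both.

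SLC7A11-AS1 is an annotated antisense transcript that overlaps SLC7A11 over 14081 bases, 865 of them exonic in both genes. The library preparation does not mark strand, so reads of the overlap cannot be told apart. SLC7A11-AS1 held 24 to 434 reads a library, which is 0.635% to 1.09% of the reads of SLC7A11. Its level was 0.31 and 0.31 CPM in EV and 1.8 and 1.4 CPM in KO cells in regular medium, and 3.4 and 4.0 CPM in EV and 4.1 and 4.4 CPM in KO cells without glucose. It followed SLC7A11 in regular medium (2.27 ± 0.15, limma adjusted p = 1.6e-05) and over the medium (3.46 in EV and 1.40 in KO cells), and had an interaction of -2.06 ± 0.22 (adjusted p = 7.1e-04). Its KO difference without glucose, 0.21 ± 0.15, was not called (adjusted p = 0.37). That of SLC7A11, 0.50 ± 0.041, was called, but the difference between the 2 transcripts was not tested.

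SLC3A2, the heavy chain, was also higher in KO than in EV cells and higher without glucose, by smaller folds than SLC7A11. The gene (Entrez 6520) lies on the plus strand of chromosome 11, from 62856102 to 62888875 of GRCh38, with 15 merged exons and 23 annotated transcripts. In regular medium it was at 382 and 373 CPM in EV cells and at 481 and 447 CPM in KO cells. Without glucose it was at 842 and 807 CPM in EV cells and at 1029 and 1139 CPM in KO cells. The groups did not overlap, and the 2 libraries of KO cells without glucose were the farthest apart.

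The KO rise of SLC3A2 was 1.23-fold in regular medium (log2 fold change 0.30 ± 0.051, 95% interval 0.18 to 0.41, limma adjusted p = 0.0081) and 1.31-fold without glucose (0.39 ± 0.051, adjusted p = 7.2e-04). These were ranks 246 and 440 from the highest. The interaction was 0.10 ± 0.072 with a 95% interval of -0.06 to 0.26 (limma adjusted p = 0.45), so a KO effect that differs between the media by up to 0.26 is not excluded by these libraries. Lack of glucose raised SLC3A2 2.18-fold in EV cells (1.13 ± 0.051, adjusted p = 1.4e-08, rank 593) and 2.33-fold in KO cells (1.22 ± 0.051, adjusted p = 8.7e-09, rank 452). The KO call in regular medium was lost without EV library a (0.32, limma adjusted p = 0.062), EV library b (0.28, adjusted p = 0.087) or KO library a of that medium (0.25, adjusted p = 0.0501), and with no variance trend (0.30, adjusted p = 0.061). The other SLC3A2 calls held in every alternative.

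SNHG1, a host gene of small nucleolar RNAs, starts 188 bases from SLC3A2 on the opposite strand, and its annotated exons share 0 bases with those of SLC3A2. It was at 127 and 129 CPM in EV and 137 and 146 CPM in KO cells in regular medium, and at 83.4 and 79.0 CPM in EV and 89.2 and 81.7 CPM in KO cells without glucose. SNHG1 fell without glucose by 0.65 in EV and by 0.73 in KO cells on the log2 scale (limma adjusted p = 7.6e-07 and 3.7e-07), while its neighbour SLC3A2 rose.

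Promoter windows from RefSeq (GRCh38.p14) ran from 250 bases before to 50 bases after a start. The set used here held 0 windows of SLC7A11, so that gene was not searched. It held 3 windows of SLC3A2. They were searched on both strands for the core of the antioxidant response element that NRF2 binds (TGACNNNGC) and for a core of the C/EBP-ATF response element that ATF4 binds (TGATGNAA), and matches could overlap other motifs. The window of the start at 62881699 held both, and the windows of the starts at 62856109 and 62880896 held neither. Of all 35116 windows 13.3% held the former core, 3.62% the latter and 0.39% both. The matches are shown with their flanks, 5′ to 3′ along each gene, the match in capitals, beside those of 4 reference targets (GCLM and ME1 for NRF2, ASNS and CHAC1 for ATF4) as a comparison of the letters. These were picked because they hold a match: of reference targets with a window, 3 of 6 for NRF2 held the antioxidant core, and of 8 for ATF4, 2 held the C/EBP-ATF core and 3 the antioxidant core. ASNS, GCLM and ME1 lie on the minus strand of the genome, and the matches of GCLM, CHAC1 and the latter of SLC3A2 are on the strand opposite to the gene.
SLC3A2, chr11:62881651-62881680: acgagggtgggTGACTCAGCgtcctccttc
GCLM, chr1:93909446-93909475: ctacgatttctGCTTAGTCAttgtcttcca
ME1, chr6:83431170-83431199: atctcctgccaTGACTCAGCgcttctcgca
SLC3A2, chr11:62881719-62881748: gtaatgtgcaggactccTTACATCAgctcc
ASNS, chr7:97872458-97872487: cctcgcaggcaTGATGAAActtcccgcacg
CHAC1, chr15:40953251-40953280: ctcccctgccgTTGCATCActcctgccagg
The antioxidant core of SLC3A2 began 37 bases before the start (62881662 to 62881670) and had the same 9 letters as the ME1 match shown. The same ME1 window held another antioxidant core, on the strand opposite to the gene and with other letters, which is not shown. The C/EBP-ATF core lay after the start (62881736 to 62881743). A match is a sequence of letters and was not tested for binding.

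The ratio of the chains was compared per length, as CPM per kilobase of merged exons (9645 bases for SLC7A11, 5178 for SLC3A2). In EV cells in regular medium SLC7A11 was at 6.77% and 7.10% of SLC3A2. It was at 20.1% and 23.3% in KO cells in regular medium, at 22.4% and 24.2% in EV cells without glucose, and at 26.6% and 23.7% in KO cells without glucose. EV cells in regular medium stood alone at the low end. The libraries of EV cells without glucose overlapped those of both KO groups, and the nearest libraries of the 2 KO groups were at 23.3% and 23.7%.

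**Figure D3:**
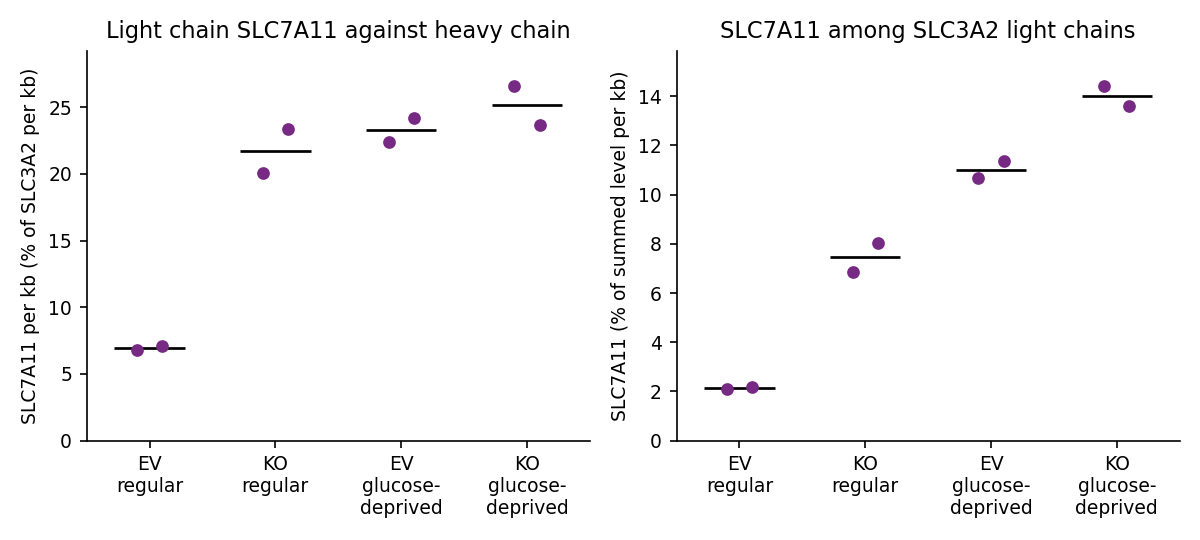
SLC7A11 as a percentage of SLC3A2 (left) and of the summed light chains (right), both from levels per kilobase of merged exons, for the 4 groups; points are libraries and bars the mean of 2. The ratio to SLC3A2 was 6.93% in EV cells in regular medium and 21.7% to 25.1% in the other 3 groups, whereas the share among light chains rose from 2.14% over 7.45% and 11% to 14.0%.

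The change of this ratio does not depend on gene length. It rose 3.12-fold in KO cells in regular medium, by 1.64 on the log2 scale (95% interval of the ratio on its own, with 4 residual degrees of freedom, 1.35 to 1.94). It rose 3.36-fold without glucose in EV cells (1.75, interval 1.45 to 2.04). Where the other condition was already present, the KO effect was 1.08-fold (0.11, interval -0.19 to 0.41) and the effect of the medium 1.16-fold (0.21, interval -0.08 to 0.51), and neither interval excluded 0. The KO effects on the ratio differed between the media by -1.53 (interval -1.95 to -1.11), which is a test that SLC7A11 and SLC3A2 had unlike interactions.

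A limma fit over all genes as ratios to SLC3A2 gave adjusted p = 1.0e-21 for KO in regular medium and 0.24 without glucose, and 0.021 for the medium in KO cells. Every gene of that fit shares the noise of SLC3A2, so its p-values are too small, and it called 79.9%, 86.5% and 96.4% of genes in these contrasts, 95.1% for the medium in EV cells and 1.88% for the interaction. The call at 0.021 was lost without library a of either KO group (0.13 and 0.11, adjusted p = 0.12 and 0.36), and the KO effect without glucose became a call without library b of deprived KO cells (0.19, adjusted p = 0.032).

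**Figure D4:**
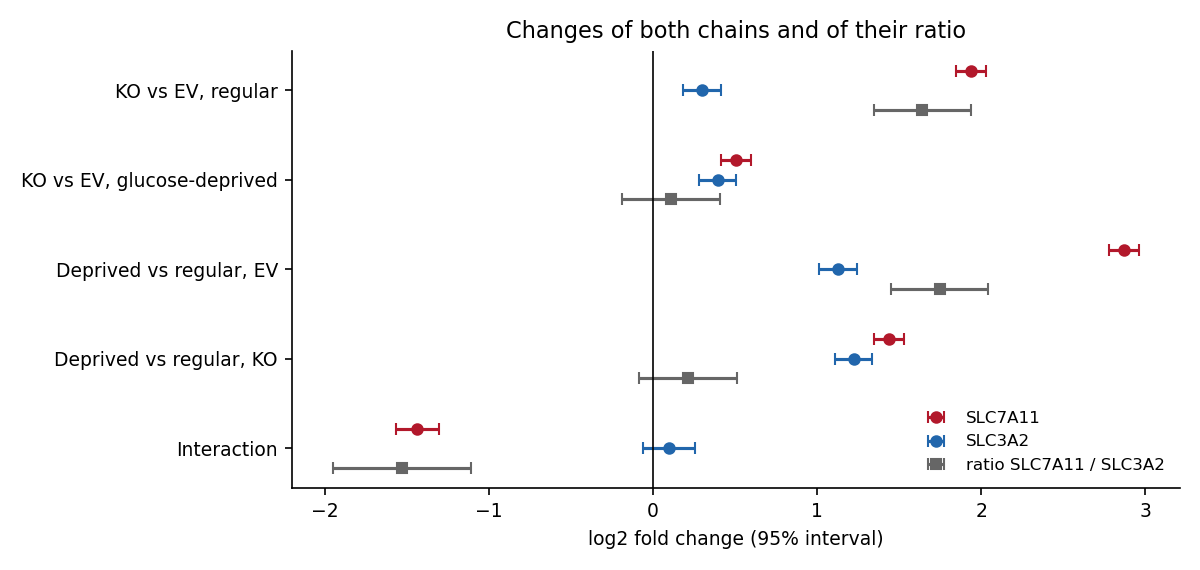
log2 fold changes of SLC7A11, SLC3A2 and their ratio for 4 comparisons and the interaction (KO effect without glucose minus KO effect in regular medium); bars are 95% intervals, from limma for the chains and from the ratio on its own for the ratio. SLC7A11 and the ratio have interactions of -1.44 and -1.53, and the interval of SLC3A2 (0.10) includes 0.

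Of the 6 light chains of the SLC7 family that pair with SLC3A2, 4 had values and 3 passed the filter on mean level. SLC7A5 (LAT1), a carrier of large neutral amino acids, was the most abundant, at 1059 and 1057 CPM in EV cells and 1155 and 1049 CPM in KO cells in regular medium. Without glucose it was at 1424 and 1369 CPM in EV cells and at 1464 and 1546 CPM in KO cells. SLC7A5 rose without glucose by 0.40 in EV and 0.45 in KO cells on the log2 scale (limma adjusted p = 1.8e-05 and 7.7e-06), and its KO differences were 0.06 and 0.11 (adjusted p = 0.49 and 0.13). SLC7A6 (y+LAT2), an exchanger of cationic and neutral amino acids, fell without glucose by 0.79 in EV and by 0.92 in KO cells (adjusted p = 2.1e-08 and 8.0e-09), contrasts that called 38.7% and 36.8% of all genes lower. Its KO rise in regular medium (0.17, limma adjusted p = 0.026) was lost without any 1 of 5 libraries: both of EV cells in regular medium, both of EV cells without glucose, and KO library a in regular medium (adjusted p up to 0.21), and with no variance trend. SLC7A7 was at 0.42 to 1.4 CPM, below the filter, and SLC7A8 and SLC7A10 were not analysed here. For KO in regular medium 3.87% of all genes were called higher. In KO cells in regular medium 2 of 3 tested light chains were thus called higher, and 1 (SLC7A11) when any of those 5 libraries was left out.

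Among these light chains, per kilobase, SLC7A11 made up 2.11% and 2.16% of the summed level in EV cells and 6.86% and 8.04% in KO cells in regular medium. Without glucose it made up 10.7% and 11.4% in EV cells and 14.4% and 13.6% in KO cells. The share of SLC7A5 went from 94.3% in EV cells in regular medium to 84.6% in KO cells without glucose. The SLC7A11 share was higher in the 4 deprived libraries than in the 4 regular ones (12.5% against 4.80% on average, exact two-sided permutation p = 0.029, the smallest that 70 arrangements allow) and higher in KO than in EV libraries (10.7% against 6.58%, permuted within medium, exact p = 0.056, the smallest that 36 allow). Light chains summed per SLC3A2 went the other way, per kilobase of merged exons. Their means were 3.24 and 2.91 in EV and KO cells in regular medium and 2.11 and 1.79 without glucose. By the longest transcript they were 1.46, 1.31, 0.95 and 0.80 in the same order. Whether the light chains exceeded SLC3A2 thus depended on the length used. The tests of this sum by merged exons gave the same 2 p-values. The log2 ratio of SLC7A11 to SLC3A2 had exact p = 0.057 for the medium and 0.11 for KO. Adjusted over these 6 tests, 5 p-values were 0.069 and that of the ratio for KO was 0.11. With so few arrangements no adjusted value could have passed 0.05, so the adjusted values say nothing about the data.

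Other routes by which cystine, cysteine or glutamate cross membranes moved in both directions. Of 6 tested carriers 1 was called higher and 2 lower in KO cells in regular medium, where 3.87% and 3.38% of all genes were, and 2 higher and 2 lower without glucose, against 9.04% and 10.6%. The 2 called lower were the same in both media, SLC1A1, a glutamate and cysteine importer (-0.33 and -0.23, limma adjusted p = 0.0042 and 0.011), and SLC1A4, a carrier of small neutral amino acids that include cysteine (-0.20 and -0.16, adjusted p = 0.0077 and 0.0095). SLC1A5, the glutamine carrier, was called higher in both. Without library a or b of EV cells in regular medium 0 were called in the former, and in the latter 1 was called without library b of deprived EV cells and 2 without library a of deprived EV or b of deprived KO cells. With no variance trend SLC1A4 lost its call in regular medium (adjusted p = 0.055). The medium called 3 of 6 higher and 2 lower in EV cells, and 4 higher and 1 lower in KO cells, near the 76.2% and 73.3% of all genes called. SLC1A4 was at 280.0 and 274 CPM in EV cells in regular medium and at 1009 and 1005 CPM without glucose, a rise of 1.86 (limma adjusted p = 1.9e-11), and rose by 1.90 in KO cells. SLC1A5 rose by 0.53 and 0.46. SLC1A3, a glial glutamate importer, fell by 1.84 in EV and by 1.32 in KO cells (adjusted p = 7.2e-08 and 9.7e-07), and was 0.72 higher in KO than in EV cells without glucose (adjusted p = 0.0015).

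Of 10 genes of cystine reduction and glutathione metabolism 5 were called higher and 0 lower in KO cells in regular medium (median 0.37, against 0.00 over all genes), and 5 higher and 1 lower without glucose. Of all genes 3.87% were called higher and 3.38% lower in regular medium, and 9.04% and 10.6% without glucose. GCLM, the modifier subunit of the enzyme that starts glutathione synthesis, was at 71.0 and 70.3 CPM in EV and 129 and 140.3 CPM in KO cells in regular medium, a rise of 0.93 (limma adjusted p = 5.4e-07), and rose by 0.82 without glucose. GSR, which reduces oxidized glutathione, rose by 0.67 and 0.62 and TXN, the substrate of TrxR1, by 0.39 and 0.43. The gene called lower was TXNRD1 itself (-0.47 without glucose, adjusted p = 2.0e-05), whose KO effects differed between the media by -0.39 ± 0.050 (adjusted p = 0.0025). None of the 10 rose as much as SLC7A11 in KO cells in regular medium, and 3 rose more than it without glucose.

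Lack of glucose called 8 of these 10 genes higher and 1 lower in EV cells, and 8 higher and 0 lower in KO cells, where 37.5% and 36.5% of all genes were called higher. CHAC1, which degrades glutathione, had the largest rise of the list, from 10.8 and 10.2 to 109 and 107 CPM in EV cells (3.35) and by 3.34 in KO cells. GLRX, a glutaredoxin, rose by 2.26 and 2.14. Cysteine can also be made from methionine by transsulfuration. CTH, which releases cysteine, rose from 3.5 and 3.1 to 43.1 and 43.5 CPM in EV cells (3.70, limma adjusted p = 5.6e-10) and by 3.97 in KO cells, CBS rose by 2.76 and 2.81, and MAT2A, which makes S-adenosylmethionine, fell by 1.09 and by 1.13. AHCY rose by 0.25 and 0.16, so that 3 of 4 transsulfuration genes rose and 1 fell in each cell type. For KO 7.25% of all genes were called in regular medium and 19.6% without glucose. In KO against EV cells 0 of these 4 were called in regular medium, and 1 without glucose, which was 0 without any 1 of the 4 deprived libraries.

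Among 9 genes known to act on SLC7A11 transcription or on the stability of xCT, 3 were called higher and 0 lower in KO cells in regular medium. There 3.87% and 3.38% of all genes were. Without glucose 2 were called higher and 1 lower, against 9.04% and 10.6% of all genes. ATF4 was at 353 and 361 CPM in EV and 430.2 and 426 CPM in KO cells in regular medium, and at 913 and 882 CPM in EV and 896 and 862 CPM in KO cells without glucose. Its KO difference was 0.26 (limma adjusted p = 0.0015) in regular medium and -0.03 (adjusted p = 0.57) without glucose, an interaction of -0.29 ± 0.048 (adjusted p = 0.0085) that was lost without library a of EV cells in either medium (adjusted p = 0.080 and 0.069) and with no variance trend (0.066). ATF3, a stress factor described to repress SLC7A11, went the other way, with KO rises of 0.29 and 0.74 and an interaction of 0.45 ± 0.056 (adjusted p = 0.0019). KEAP1, which marks NRF2 for degradation, was higher in KO cells by 0.28 and 0.31, the former lost without library a or b of EV cells in regular medium (adjusted p = 0.081 and 0.074).

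Lack of glucose called 5 of these 9 genes higher and 3 lower in EV cells, and 5 higher and 4 lower in KO cells. In EV cells 8 of the 9 were thus called, where 76.2% of all genes were, and in KO cells all 9, where 73.3% were. The count in EV cells went from 8 to 5 without library b of EV cells in either medium. ATF3 rose by 2.30 in EV and 2.75 in KO cells, ATF4 by 1.33 and 1.04, BACH1, a repressor at antioxidant response elements, by 1.04 and 1.03, and NFE2L2, which encodes NRF2, by 0.57 and 0.70 (limma adjusted p at most 1.6e-07 for each). The 4 called lower in KO cells were KEAP1, BAP1, OTUB1 and CD44, with log2 fold changes no lower than -0.32. In EV cells none of the 9 was lower than -0.15. All of these are mRNA levels, and the activity of NRF2 and ATF4 is known to be set largely after transcription.

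SLC7A11 was then placed among reference targets of both factors. In KO cells in regular medium 7 of 8 NRF2 targets were called higher and 0 lower (median 0.91), against 3.87% and 3.38% of all genes. Of the 8, 1 was above SLC7A11 (1.94), HMOX1 (2.10). OSGIN1 rose by 1.79, NQO1 by 1.29 and SRXN1, which repairs peroxiredoxins, by 0.89 (limma adjusted p at most 1.2e-07), whereas TXNRD1 was at -0.08 (adjusted p = 0.19). Without glucose 7 were called higher and 1, TXNRD1, lower (median 0.82), against 9.04% and 10.6% of all genes. The same comparison left 7 of 8 above SLC7A11 (0.50), among them HMOX1 (2.07), OSGIN1 (0.93), GCLM (0.82), NQO1 (0.82), SRXN1 (0.81) and ME1 (0.67). The KO effect of OSGIN1 differed between the media by -0.85 ± 0.084 and that of NQO1 by -0.47 ± 0.044 (limma adjusted p = 4.7e-04 and 3.7e-04). Of the 8 targets 3 had called interactions, all below 0, against 2.01% of all genes called lower. Besides OSGIN1 and NQO1 this was TXNRD1 (-0.39), the gene targeted in KO cells. Its KO effects were -0.08 in regular medium and -0.47 without glucose, so it had no KO rise to lose. The interaction of HMOX1 was -0.03 ± 0.069 (adjusted p = 0.86).

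ATF4 targets moved mainly with the medium. All 8 were called higher without glucose in each cell type, with medians of 2.80 in EV and 2.86 in KO cells, against -0.01 and 0.00 over all genes, of which 37.5% and 36.5% were called higher. DDIT3 rose by 4.60 and 4.41, TRIB3 by 3.55 and 3.52, PSAT1 by 1.56 and 1.57 and ASNS, asparagine synthetase, by 2.48 and 2.38 (limma adjusted p at most 2.3e-10). In EV cells 4 of 8 rose more than SLC7A11 (2.87) and 7 of 8 more than SLC3A2 (1.13), and in KO cells 7 of 8 rose more than either chain. In KO against EV cells 3.87% of all genes were called higher in regular medium and 9.04% without glucose. Of the ATF4 targets 3 of 8 were called higher in regular medium, led by CHAC1 (0.53), and 4 of 8 without glucose, with medians of 0.12 and 0.15. These counts went to 1 without KO library a or either EV library in regular medium, and to 2 without KO library b or either EV library of the deprived groups.

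**Figure D5:**
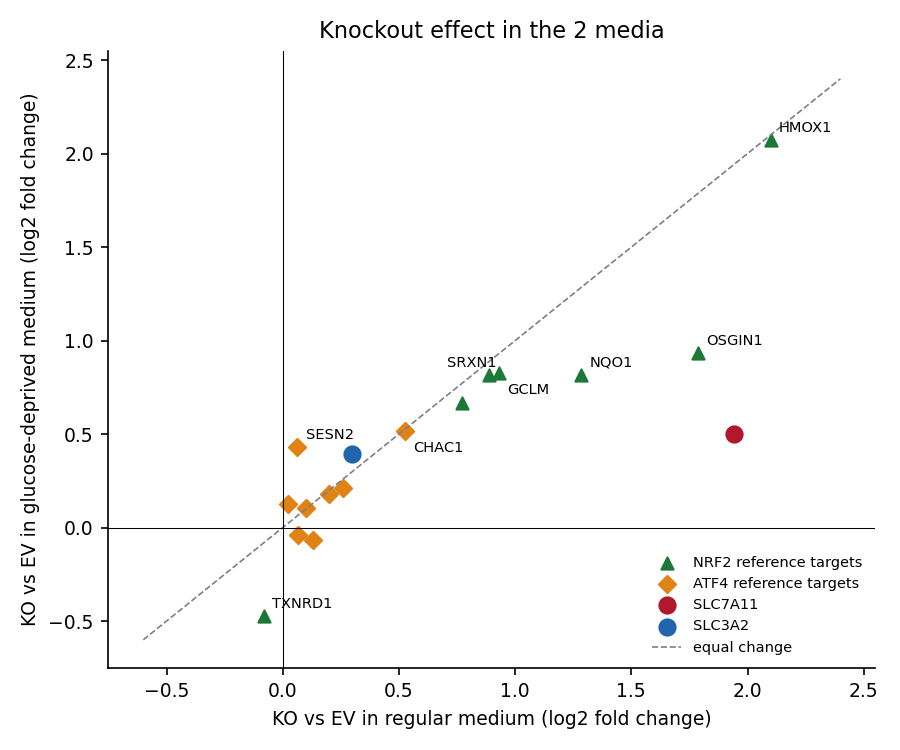
log2 fold change of KO against EV cells in regular medium (x axis) and in glucose-deprived medium (y axis) for both chains, 7 NRF2 reference targets and 8 ATF4 reference targets; the dashed line marks equal change, and the axes share no libraries. SLC7A11 lies at 1.94 and 0.50, below the line, and SLC3A2 at 0.30 and 0.39, near it.

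Genes reported from screens for disulfidptosis were read last, with both chains among the 10. In KO cells in regular medium the 2 called were SLC7A11 and SLC3A2, and 0 of the other 8, while SLC3A2 dropped out in the alternatives given above. Of all genes 7.25% were called there and 19.6% without glucose. With 8 genes, 0 called is near the former share and says nothing about these genes. In KO cells without glucose both chains were called higher and OXSM, an enzyme of mitochondrial fatty acid synthesis, lower (-0.26, limma adjusted p = 0.019), the latter lost without library b of deprived KO cells or either library of deprived EV cells (adjusted p = 0.091, 0.095 and 0.11). For the medium 7 of 10 were called higher and 2 lower in EV cells, and 6 higher and 2 lower in KO cells, both chains included, against 76.2% and 73.3% of all genes called. Both chains had the largest rises of the list. RPN1, a subunit of the oligosaccharyltransferase, rose by 0.42 and 0.35 and NCKAP1, a subunit of the WAVE actin regulator, by 0.25 and 0.26, whereas GYS1, the muscle glycogen synthase, fell by 0.65 and by 0.75 and NDUFA11, a subunit of respiratory complex I, by 0.24 and by 0.37 (limma adjusted p at most 1.9e-04).

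The genes whose pattern over the 8 libraries was most like that of each chain were found by the root mean square difference of log2 CPM after each gene was centred on its own mean. For SLC7A11 these were SLC7A11-AS1 (0.24), AKR1C1 (0.32), AKR1C3 (0.44), OSGIN1 (0.49) and the long noncoding RNA LUCAT1 (0.49). AKR1C1 went from 2.3 and 1.8 CPM in EV cells in regular medium to 5.3 and 6.1 CPM in KO cells, and from 13.6 and 12 to 28.7 and 25.5 CPM without glucose. AKR1C1 and AKR1C3 are related aldo-keto reductases of similar sequence, so some of their reads may have been split uncertainly. SLC3A2 was at rank 138 of this order, with a difference of 0.76.

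For SLC3A2 the nearest were KCNAB2, a subunit of potassium channels (0.02), the phosphatase DUSP5 (0.07), the autophagy genes MAP1LC3B (0.11) and MAP1LC3B2 (0.11), and NOG (0.11). KCNAB2 was at 8.0 and 7.9 CPM in EV and 10.1 and 9.2 CPM in KO cells in regular medium, and at 17.8 and 17.0 CPM in EV and 22.4 and 23.8 CPM in KO cells without glucose. MAP1LC3B and MAP1LC3B2 are near-identical copies, and their values are uncertain for the same reason. SLC7A11 was at rank 9609 in this order. The measure depends on the size of the changes, so genes that hardly changed can rank before SLC7A11, whose folds were larger than those of SLC3A2. The Pearson correlation of the 2 chains over the libraries was 0.919.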

How the data were processed

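RNA-seq libraries of 8 samples, 2 per group, were analysed from 1 deposited table. Per the labels' protocols, TRIzol was used to extract RNA, and SMART-Seq mRNA HT and Nextera XT kits to make libraries, which do not mark strand. Per the submitters' processing notes, the authors used HISAT2, edgeR and GRCh38, without versions; the counter, annotation and gene filter are not given in the sources used here. The authors' deposited values are log2 CPM with a small prior count, as read from the values: after removal of an offset of 0.023 CPM, 100% were whole multiples of 1 read within a tolerance of 0.05. The reads were scaled to an effective library size that differs from the plain total, and how it was set cannot be read from the values. The depth is at least the sum of reads over the table. CPM in the text has this offset removed.

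Column headers name the group but no replicate number, and 0 other columns of values were left unused. Headers ending in GlcN were taken as glucose-deprived. TXNIP, which glucose induces, was at 85.5 and 87.1 CPM in EV and 77.3 and 81.9 CPM in KO columns without that ending, and at 8.4 to 11.0 CPM in those with it.

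Genes averaging 0 or more on the log2 CPM scale (13057, with 673 below) were fitted with limma 3.58.1 (R 4.3.3), with 1 mean per group, a variance trend, 4 residual and 6.29 prior degrees of freedom, and Benjamini-Hochberg adjustment in each of 5 contrasts. Calls were made at adjusted p-values under 0.05. The ratio of the chains was fitted in the same way after SLC3A2 was subtracted from every gene (51.9 prior degrees of freedom), and on its own. Lengths are from GENCODE 29. The fit was also run on simulated reads in which genes varied independently. That run checks the code and cannot show whether calls from these libraries are sound. The interval of the ratio on its own, the comparison on the CPM scale and limma voom were added after the data were seen.

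The members and lists were chosen with earlier results of these data known. The rule named both chains, up to 4 genes per list and contrast by smallest adjusted p with any other member allowed, neighbours within 1 kb or overlapping, and the 5 nearest patterns of each chain. TXNIP and TXNRD1 were named as checks of the labels. Values of 2 list members are not reported here, and the list counts include them.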

Additional observations from a re-analysis of the deposited data

Results flagged for a closer look

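The KO effect differed between glucose-deprived and regular medium, by the interaction term of the fit, for the following results, given as the log2 effect without glucose minus that in regular medium. It was -1.44 for SLC7A11, -1.53 for the ratio of SLC7A11 to SLC3A2 and -2.06 for SLC7A11-AS1, which shares reads with SLC7A11 where the genes overlap. It was -0.85 for OSGIN1, -0.47 for NQO1 and -0.39 for TXNRD1, the gene targeted in KO cells. It was -0.29 for ATF4 and 0.45 for ATF3. Of all genes tested 4.31% had a called interaction. Groups of 2 libraries were too small to look for single outlying libraries.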

How the results depend on the processing

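No paired analysis was possible because the columns carry no replicate numbers. Depth did not limit these genes, and with 2 libraries a group the spread between libraries did. The 5 SLC7A11 results kept their direction and their call in every alternative: no filter or a filter at log2 CPM 3, 1 CPM added before the log, no variance trend, median-of-ratios scaling, only the groups compared, voom on recovered reads, and each library left out. So did 4 of 5 SLC3A2 results. Scaling moved the median of all genes by less than 0.01 in each contrast. Where a value below changed, the cause was not tested.

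Without a variance trend, SLC3A2 for KO in regular medium (0.30) lost its call, 433 genes were called for KO in regular medium and 223 for the interaction, and list counts were 1 for light chains, 1 for ATF4 targets and 1 for screen genes (KO, regular), 0 for transsulfuration and 2 for ATF4 targets (KO, deprived), and 1 for regulators and 0 for ATF4 targets (interaction). The log2 ratio for the medium in KO cells (0.21) lost its call there, with only the groups compared and in the fit of the ratio on its own.

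With single libraries left out, SLC3A2 for KO in regular medium was 0.25 to 0.35, and the ratio 0.026 to 0.19 for KO without glucose and 0.11 to 0.32 for the medium in KO cells. Counts of genes called were 168 to 1414 (KO, regular), 852 to 3058 (KO, deprived) and 147 to 1579 (interaction). For KO in regular medium 1 to 2 light chains, 0 to 3 carriers, 1 to 3 ATF4 targets and 1 to 2 screen genes were called; without glucose 1 to 5 carriers, 0 to 1 transsulfuration genes and 2 to 5 ATF4 targets; for the interaction 0 to 1 carriers, 0 to 1 transsulfuration genes, 1 to 4 regulators and 0 to 2 ATF4 targets; and for the medium in EV cells 5 to 8 regulators. SLC7A5 for KO in regular medium was -0.012 without KO library a, in a range of -0.012 to 0.13. HMOX1's interaction was 0.076 with 1 CPM added, -0.078 to 0.025 with single libraries left out, and above 0 (0.0056, 0.025, 0.019 and 0.011) without library a of the deprived KO, deprived EV, regular KO and regular EV groups.

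In the order EV regular, KO regular, EV deprived and KO deprived, SLC7A11 was 2.97%, 9.31%, 9.99% and 10.8% of SLC3A2 per kilobase of the longest transcript and 16.3%, 50.9%, 54.6% and 59.0% per kilobase of coding sequence. Its share of light chains was 4.21%, 13.9%, 20.2% and 24.9% by coding sequence and 4.16%, 13.8%, 20.0% and 24.7% without length. By coding sequence the share of SLC7A5 was 90.4%, 80.8%, 77.8% and 73.2%, and light chains summed per SLC3A2 were 3.86, 3.65, 2.71 and 2.36. For each measure the order of the groups was the same each time.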
